A study of Mus musculus with 8 samples.

Results

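The genes described here are tumour necrosis factor (Tnf), its receptors Tnfrsf1a and Tnfrsf1b, the proteins that assemble on those receptors (Tradd, Traf1, Traf2, Birc2 and Birc3) and the feedback inhibitor Tnfaip3. Of 10 listed genes, 9 were represented by a probe set that the platform annotation assigns to that gene alone, and these 9 genes hold 15 of the 45101 probe sets on the array. Ripk1, the kinase that binds the receptor complex, was not analysed here. All 15 probe sets exceeded the median level of the whole table, 6.87 log2, on at least 2 of the 8 arrays and entered the tests. The 2 Traf1 probe sets did so only through the transgenic arrays.

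Messenger RNA levels were measured in whole ankle joints of mice 5 months old on 8 Affymetrix arrays, each labelled as a joint from a mouse. Of these arrays, 3 came from mice that carry a human TNF transgene and are labelled as functionally null for sphingosine kinase 1 (Sphk1), 3 came from mice with the transgene and normal Sphk1 activity (hTNF), and 2 came from wild-type mice. Both transgenic groups thus share the transgene, and no normal-TNF group labelled Sphk1 null was among the arrays analysed. The labels give neither the promoter that drives the transgene, the founder line, the strain background nor the form of the Sphk1 null allele. RNA of the human transgene was not analysed here, and whether the mouse Tnf probe set also reads the human transcript was not tested. A whole joint mixes synovium, cartilage, bone, muscle, fat and skin, so fewer cells of a type and less RNA per cell cannot be told apart. The labels name a mouse for every array without saying whether litters or RNA preparations were separate, so p-values cover just the spread from array to array, part of which may be technical.

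TNF is a cytokine made largely by macrophages and lymphocytes and cut from the cell surface by a metalloprotease. Its receptor TNFR1 (Tnfrsf1a) is present on most cell types and carries a death domain that recruits TRADD, which brings in TRAF2, the ubiquitin ligases cIAP1 (Birc2) and cIAP2 (Birc3) and the kinase RIPK1. TNFR2 (Tnfrsf1b) lacks a death domain, is found mainly on leukocytes and endothelium, and binds TRAF2 and TRAF1 directly. The complex activates the transcription factor NF-kB, and Tnfaip3 (A20) and Birc3 are known NF-kB target genes whose products act back on it. In synovial joints, excess TNF is a known driver of erosive arthritis.

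A promoter window each of the ligand and of its feedback inhibitor is shown. Both genes rose in the transgenic joints and both are textbook NF-kB targets. Birc3 also rose and is a known NF-kB target, but its window held neither motif searched for and is not printed. The printed windows are the only ones searched for the listed genes that held a match. Windows are the 250 bases before the annotated start of a transcript, from RefSeq's GRCm38.p6 table, printed 5′ to 3′ on the strand of the gene. Capitals mark each match to the TATA box TATAAA or to the NF-kB consensus, searched on both strands.
Tnf, chr17:35202008-35202257, minus strand: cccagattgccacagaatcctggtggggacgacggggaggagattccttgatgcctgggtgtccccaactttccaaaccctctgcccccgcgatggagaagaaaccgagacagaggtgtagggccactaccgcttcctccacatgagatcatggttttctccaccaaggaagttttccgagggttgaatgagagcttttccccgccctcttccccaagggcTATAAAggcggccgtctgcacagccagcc
Tnfaip3, chr10:19015411-19015660, minus strand: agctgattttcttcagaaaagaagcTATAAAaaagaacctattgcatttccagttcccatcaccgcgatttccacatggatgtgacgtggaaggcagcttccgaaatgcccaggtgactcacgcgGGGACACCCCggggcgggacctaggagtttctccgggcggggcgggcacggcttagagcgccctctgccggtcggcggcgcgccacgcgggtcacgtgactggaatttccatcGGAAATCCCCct
The Tnf window held TATAAA at 29 to 24 bases before the start and no NF-kB match. The printed Tnfaip3 window held TATAAA at 225 to 220 bases before the start. It also held an NF-kB match at 125 to 116 bases that reads on both strands over the same bases. A second NF-kB match stood at 12 to 3 bases on the opposite strand. Another Tnfaip3 window, not printed, held neither motif. The table held windows for 9 of the 10 listed genes, Ripk1 included and Tradd not, with 12 windows in all. An NF-kB match stood in 1 of these 12 windows (8.33%), against 2382 of all 32851 windows (7.25%). TATAAA stood in 2 of the 12 (16.7%), against 4063 of all windows (12.4%). These are matches of letters within a short window, and say nothing of whether a factor binds there.

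Several facts of the arrays touch what follows. Only the brighter Sphk1 probe set was tested. It stood at 10.22, 9.94 and 10 log2 in joints labelled Sphk1 null and at 8.63, 8.65 and 8.28 in hTNF joints. In wild-type joints it stood at 7.25 and 7.16, so it was highest where the label says null. A dimmer Sphk1 probe set lay below the filter level of 6.87 on every array. This dimmer probe set stood at 6.68, 6.33 and 6.41 in joints labelled null and at 6.52, 6.74 and 6.5 in hTNF joints. In wild-type joints it stood at 6.12 and 6.39, and its difference between labelled null and hTNF joints was -0.11 log2. The brighter, tested probe set differed by 1.53 log2 between the same groups and was called higher in joints labelled null (limma adjusted p = 0.0164). The labels do not state whether either probe set lies in a deleted stretch, so the group is called by its label throughout. One array in each group (labelled null replicate 1, hTNF replicate 1 and wild-type replicate 2) had both Xist signal and raised Y-linked signal. On Eif2s3y these stood at 9.14, 6.6 and 6.91 log2, but on Kdm5d at 7.22, 4.27 and 4.24. Labelled null replicates 2 and 3 and hTNF replicate 3 had high Xist, with Eif2s3y at 3.46, 3.46 and 3.81 and Kdm5d at 4.21, 3.82 and 3.68. In hTNF replicate 2 and wild-type replicate 1, Xist was low (7.29 and 7.45) and Eif2s3y high (8.75 and 8.86). The labels do not say whether RNA of several mice was pooled. The joint markers Prg4 (lubricin) and Comp stood at 14.3 to 14.52 and at 12.96 to 13.72 on all arrays, but their lists moved: in hTNF against wild-type joints 6 of 8 chondrocyte genes fell, among them Acan (-1.35 log2), and of 11 synovial fibroblast genes 6 rose and 2 fell, with Pdpn at 1.78 and Clic5 at -1.96 log2. Of the other lists, 7 of 8 endothelial, 7 of 7 adipocyte and 2 of 6 bone genes fell, and 5 of 6 osteoclast genes rose. Of 8 T and NK cell genes 1 rose, and none of 8 B and plasma cell genes was called. Over all genes tested, 16.5% rose and 19.6% fell in hTNF against wild-type joints. The 20 macrophage genes of a marker list averaged 11.7 to 12.0 log2 in joints labelled null and 11.4 to 11.8 in hTNF joints, against 9.5 to 9.61 in wild-type joints, and 18 of 20 rose in hTNF against wild-type joints with none falling. The 13 neutrophil genes differed between the wild-type arrays themselves (7.74 and 10.5). The 17 skin genes averaged 6.37 to 11.03 within the hTNF group alone, with hTNF replicate 1 the highest of all arrays for skin and the lowest of its group for macrophage genes. The part of cell composition in the differences below was not tested.

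**Figure D1:**
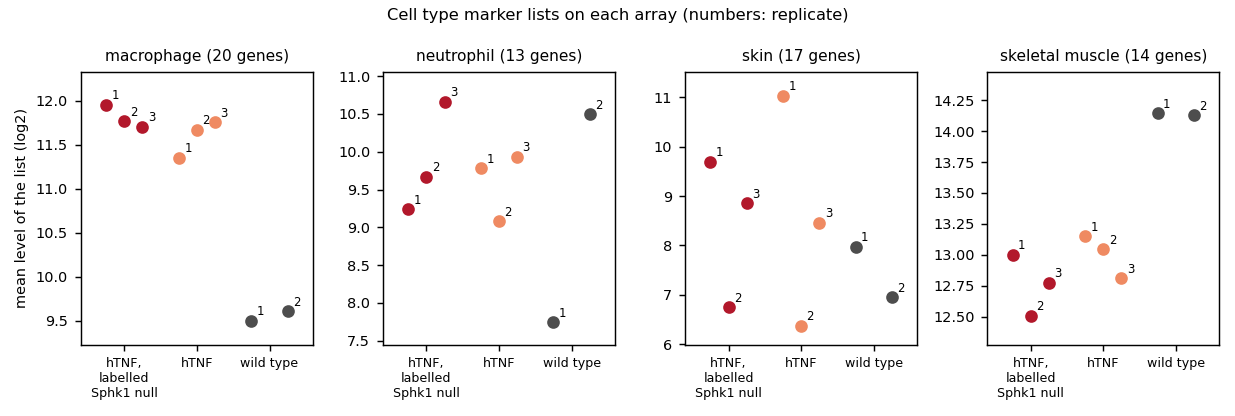
Mean log2 level of the macrophage, neutrophil, skin and skeletal muscle marker lists on each array (numbers give the replicate), with the labelled Sphk1 null joints left, the hTNF joints in the middle and the wild-type joints right. Macrophage genes sit between 11.4 and 12.0 on the transgenic arrays and at 9.5 and 9.61 on the wild-type arrays, whereas skin genes spread from 6.37 to 11.03 within the hTNF group.

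The comparison of hTNF with wild-type joints asks what the transgene is accompanied by. Transcripts of the mouse ligand, of both receptors, of every adaptor measured and of the feedback inhibitor were higher in hTNF joints. Of the 15 probe sets, 14 rose and none fell (limma, adjusted p under 0.05 over all tested probe sets), and each of the 9 genes had at least 1 probe set that rose. These 14 include both Traf1 probe sets, which entered the tests only through the transgenic arrays. Over all 24115 tested probe sets, 16.6% rose and 16.4% fell. The median difference of the 15 was 0.79 log2, against 0.01 over all tested probe sets. Rises of at least 1 log2 were called for 7 of the 15, in Tnf, Tnfrsf1b, Traf1, Birc3 and Tnfaip3, against 5.02% of all tested probe sets. Without hTNF replicate 3, or without wild-type replicate 2, 9 of the 15 were called. With the 3 arrays that carried Xist together with Y-linked signal left out, 14 rose. Groups of 14 of the 15 did not overlap, with hTNF joints higher, against 30.6% of all tested probe sets.

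**Figure D2:**
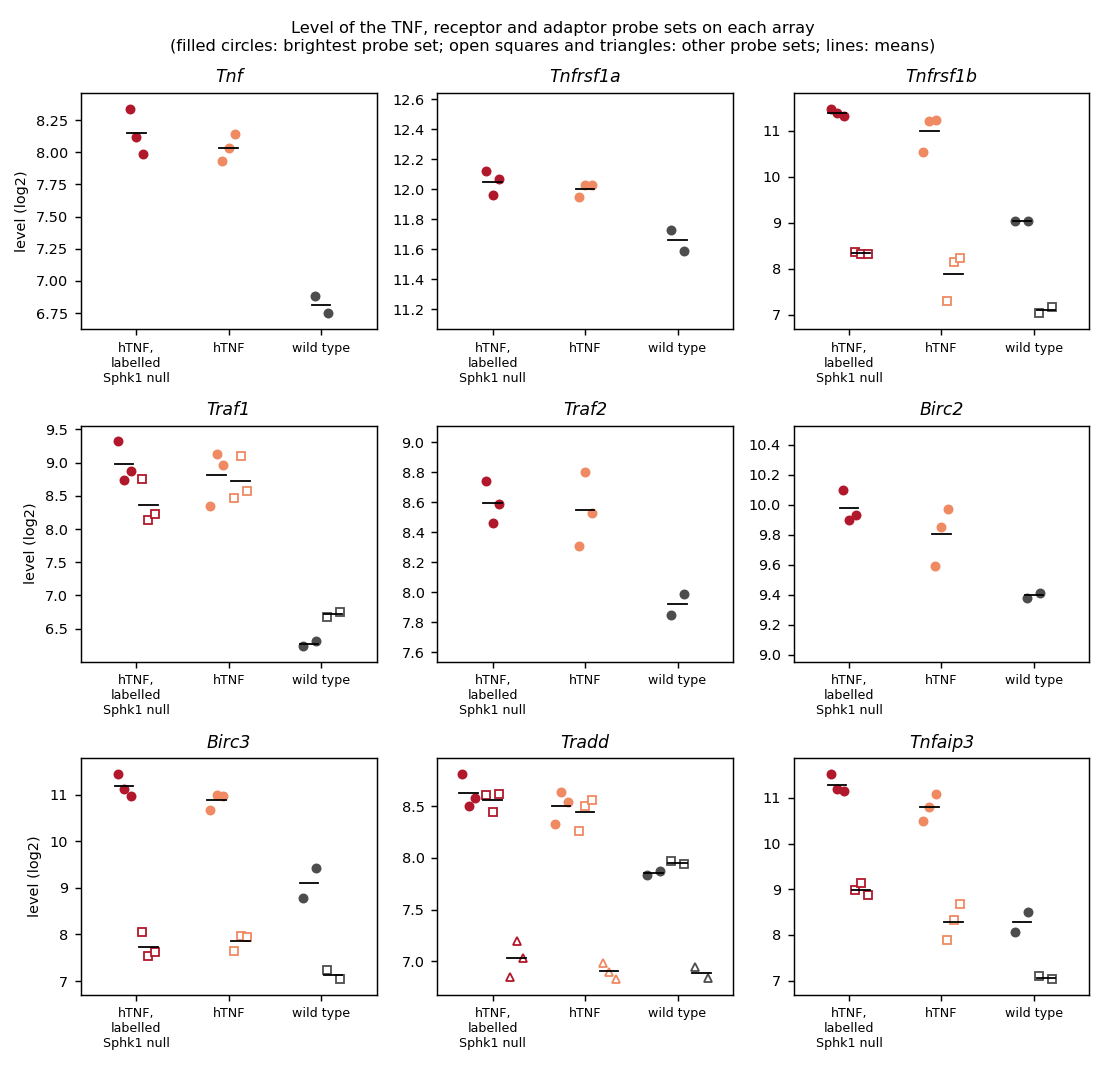
Log2 level of each of the 15 probe sets on each of the 8 arrays, with the labelled Sphk1 null joints left, the hTNF joints in the middle and the wild-type joints right, with filled circles for the brightest probe set of a gene, open symbols for its others and lines at the group means. For 14 of the 15 probe sets all transgenic arrays lie above both wild-type arrays; the exception is the dimmest Tradd probe set, 1439910_a_at.

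The ligand itself was higher in the transgenic joints. Mouse Tnf (1419607_at) stood at 8.34, 8.12 and 7.99 log2 in joints labelled Sphk1 null and at 7.93, 8.03 and 8.14 in hTNF joints, against 6.88 and 6.75 in wild-type joints. All 6 transgenic arrays lay above both wild-type arrays, and the transgenic groups overlapped. The rise in hTNF against wild-type joints was 1.22 ± 0.14 log2 (SE, 3 and 2 arrays), or 2.33-fold, with a limma adjusted p of 0.000258.

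Both receptors rose in hTNF joints. Tnfrsf1a (1417291_at), the death domain receptor of most cell types, stood at 12.12, 11.96 and 12.07 log2 in joints labelled null and at 11.95, 12.03 and 12.03 in hTNF joints, against 11.73 and 11.59 in wild-type joints. It was bright in every joint, and its rise of 0.34 ± 0.09 log2, or 1.27-fold, was the smallest among the called members (limma adjusted p = 0.0137). The call ended without hTNF replicate 3 (0.0504) or wild-type replicate 2 (0.1). Tnfrsf1b, the leukocyte and endothelial receptor, stood on 1418099_at at 11.48, 11.38 and 11.32 log2 in joints labelled null and at 10.54, 11.22 and 11.24 in hTNF joints, against 9.05 on both wild-type arrays. Replicate 1 of the hTNF group was the lowest transgenic array, and it still lay above wild type. The rise was 1.95 ± 0.19 log2, or 3.86-fold (limma adjusted p = 0.000129). Beside it, macrophage markers rose as given above and the 8 endothelial markers averaged 8.93 to 9.32 log2 in hTNF joints, against 9.71 to 9.95 in wild-type joints. A dimmer Tnfrsf1b probe set, 1448951_at, stood at 8.36, 8.32 and 8.33 in joints labelled null and at 7.31, 8.15 and 8.23 in hTNF joints, against 7.04 and 7.18 in wild-type joints. Here hTNF replicate 1 lay close to wild type, and the rise was 0.79 ± 0.24 log2 (limma adjusted p = 0.0325). That call ended without any 1 of 5 arrays, at limma adjusted p between 0.0534 (without labelled null replicate 3) and 0.167 (without wild-type replicate 1), the others being hTNF replicates 2 and 3 and wild-type replicate 2. It also ended when the fit held only the 2 groups compared (0.0763).

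Among the adaptors, the inducible TRAF1 had the largest estimated rise. On 1423602_at, Traf1 stood at 9.32, 8.74 and 8.87 log2 in joints labelled null and at 8.34, 9.13 and 8.96 in hTNF joints, against 6.24 and 6.31 in wild-type joints. Both wild-type arrays lay below the filter level of 6.87, so the size of this rise, 2.54 ± 0.24 log2 or 5.80-fold (limma adjusted p = 0.000108), depends on how dim signals were summarised. With an offset of 32 added on the linear scale before the logarithm it was 2.14 log2. The other Traf1 probe set, 1445452_at, rose by 2.00 ± 0.23 log2, or 4-fold (limma adjusted p = 0.000252). Its wild-type arrays, at 6.68 and 6.75, were below the filter level too, and with the offset of 32 the difference was 1.73 log2. Traf2 (1451233_at), the adaptor shared by both receptors, stood at 8.74, 8.46 and 8.59 in joints labelled null and at 8.31, 8.80 and 8.53 in hTNF joints, against 7.85 and 7.99 in wild-type joints. Its rise in hTNF joints was 0.63 ± 0.16 log2, or 1.54-fold (limma adjusted p = 0.0137), and 0.56 log2 without wild-type replicate 1, where the adjusted p was 0.103.

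Tradd, the death domain adaptor of TNFR1, was read by 3 probe sets. On the brightest, 1452622_a_at, it stood at 8.81, 8.5 and 8.58 log2 in joints labelled null and at 8.33, 8.64 and 8.54 in hTNF joints, against 7.83 and 7.87 in wild-type joints. It rose in hTNF joints by 0.65 ± 0.14 log2, or 1.57-fold (limma adjusted p = 0.00567). A second probe set, 1429117_at, rose by 0.48 ± 0.13 log2 (limma adjusted p = 0.0163). It was not called without hTNF replicate 2 or 3 or without either wild-type array, at limma adjusted p between 0.0592 and 0.0807. The dimmest, 1439910_a_at, lay between 6.83 and 7.20 on all 8 arrays, with overlapping groups and a difference of 0.01 ± 0.14 log2 (limma adjusted p = 0.96). It lay near the filter level throughout.

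The ubiquitin ligases of the complex, which neighbour each other on chromosome 9 with 0 annotated genes between them, both rose. Birc3 (1421392_a_at), the NF-kB inducible cIAP2, stood at 11.44, 11.13 and 10.98 log2 in joints labelled null and at 10.67, 11.00 and 10.97 in hTNF joints, against 8.79 and 9.43 in wild-type joints. The rise was 1.77 ± 0.20 log2, or 3.41-fold (limma adjusted p = 0.000274). The dimmer Birc3 probe set, 1425223_at, rose by 0.71 ± 0.18 log2 (limma adjusted p = 0.0137), a call that ended without hTNF replicate 3 (0.0502) or wild-type replicate 2 (0.0911). Birc2 (1418854_at), the broadly present cIAP1, stood at 10.10, 9.90 and 9.93 in joints labelled null and at 9.59, 9.85 and 9.97 in hTNF joints, against 9.38 and 9.41 in wild-type joints. All transgenic arrays lay above wild type, but the rise of 0.41 ± 0.13 log2, or 1.33-fold, was near the threshold (limma adjusted p = 0.0389). The call ended with no filter on low values (0.0593), and without labelled null replicate 3, hTNF replicate 2 or 3 or either wild-type array (0.0633 to 0.166).

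Tnfaip3, the ubiquitin-editing enzyme that switches the receptor complex off, rose on both of its probe sets. On 1433699_at it stood at 11.52, 11.19 and 11.16 log2 in joints labelled null and at 10.49, 10.81 and 11.08 in hTNF joints, against 8.07 and 8.51 in wild-type joints. The rise in hTNF joints was 2.50 ± 0.20 log2, or 5.67-fold (limma adjusted p = 4.32e-05), the smallest adjusted p among the 15 probe sets. On the dimmer 1450829_at it stood at 8.98, 9.13 and 8.87 in joints labelled null and at 7.88, 8.33 and 8.67 in hTNF joints, against 7.09 and 7.04 in wild-type joints. This probe set rose by 1.23 ± 0.20 log2, or 2.34-fold (limma adjusted p = 0.00166).

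Called probe sets of a gene gave the same direction in hTNF against wild-type joints but not the same size. The dimmest Tradd probe set, at 0.01 ± 0.14 log2, showed no clear direction. Over all probe sets of a gene, the differences spread by 1.27 log2 for Tnfaip3, 1.16 for Tnfrsf1b, 1.06 for Birc3, 0.64 for Tradd and 0.53 for Traf1. Sizes are therefore those of a probe set, and whether the probe sets read different transcript isoforms was not tested.

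Pairs of related genes were compared for the size of their rise, and the size depended on the probe set. The difference between the brightest probe sets of 2 genes was taken on each array, so that only its shift between groups is read, not which gene is more abundant. Tnfrsf1b gained on Tnfrsf1a by 1.61 ± 0.22 log2 (SE), or 3.05-fold, in hTNF against wild-type joints. The within-array difference lay between -1.41 and -0.79 in hTNF joints and between -2.68 and -2.54 in wild-type joints. Traf1 gained on Traf2 by 1.91 ± 0.13 log2, or 3.75-fold, which became 1.57 log2 with the offset of 32. Birc3 gained on Birc2 by 1.36 ± 0.31 log2, or 2.57-fold. The groups did not overlap for any of these 3 pairs, and the exact two-sided permutation p was 0.1 for each, the smallest that 3 against 2 arrays allow. With the other probe set of the first-named gene in each pair, the shifts were 0.44 ± 0.30 log2 for Tnfrsf1b over Tnfrsf1a (exact permutation p = 0.3, groups overlapping), 1.38 ± 0.08 for Traf1 over Traf2 and 0.30 ± 0.11 for Birc3 over Birc2 (exact permutation p = 0.1 each). The pairs and these alternatives were chosen after the values were seen.

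**Figure D3:**
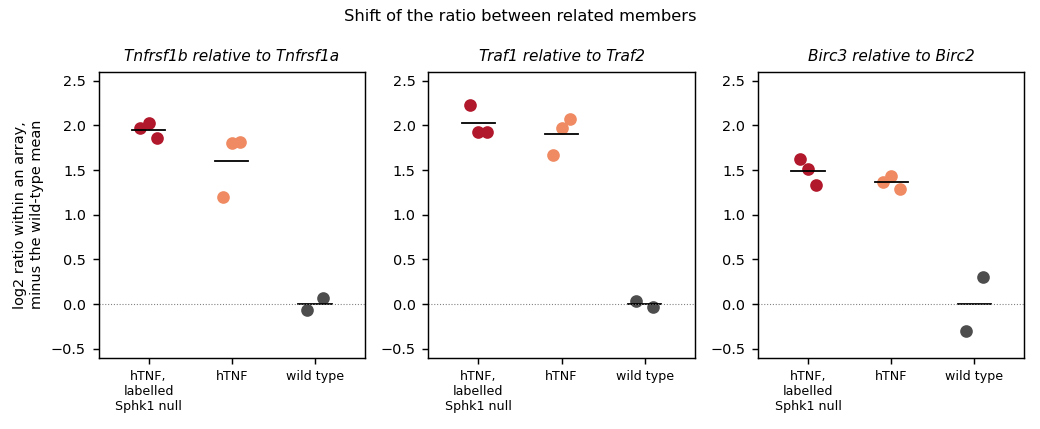
Within-array log2 difference of Tnfrsf1b minus Tnfrsf1a, Traf1 minus Traf2 and Birc3 minus Birc2 for each array, less its wild-type mean, with the labelled Sphk1 null joints left, the hTNF joints in the middle and the wild-type joints right. With these brightest probe sets all 6 transgenic arrays lie above both wild-type arrays, and only the shift between groups carries meaning.

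The comparison of joints labelled Sphk1 null with hTNF joints asks whether the TNF module differs when Sphk1 is labelled absent. None of the 15 probe sets was called in either direction, with limma adjusted p between 0.554 and 0.95. Over all tested probe sets, 2 of 24115 were called higher (0.00829%) and none lower, so few calls were made anywhere in this comparison. The brighter probe set of Sphk1, the gene labelled null, was among those called higher. The median difference of the 15 was 0.13 log2, against -0.02 over all tested probe sets, and 13 of 15 differences were positive. These 15 probe sets read 9 genes on the same arrays, so their signs are not independent. Values of 4 probe sets did not overlap between the groups, all higher in joints labelled null, and these were the 2 of Tnfrsf1b and the 2 of Tnfaip3. Over all tested probe sets 5.34% were higher without overlap. An unadjusted p under 0.05 with a positive difference was found for 3 of the 15 and for 2.65% of all tested probe sets.

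The intervals show what these arrays can and cannot tell apart. For Tnfaip3 the difference was 0.50 log2 (95% interval 0.10 to 0.90) on 1433699_at and 0.70 log2 (0.29 to 1.11) on 1450829_at. Their unadjusted limma p were 0.0199 and 0.00372, with adjusted p of 0.612 and 0.554. For Tnfrsf1b the difference was 0.39 log2 (0.01 to 0.78, adjusted p = 0.654) on 1418099_at and 0.44 log2 (-0.05 to 0.93, adjusted p = 0.67) on 1448951_at. The size of these differences leaned on hTNF replicate 1, the array with the highest skin and lowest macrophage marker level of its group. Without it, Tnfrsf1b differed by 0.16 and 0.15 log2, and Tnfaip3 by 0.34 and 0.49 log2. Tnf differed by 0.12 log2 (-0.16 to 0.40) and Tnfrsf1a by 0.05 log2 (-0.13 to 0.22), so differences beyond 0.40 log2 in either direction lie outside both intervals. For Traf1 the probe sets differed in sign, at 0.17 log2 (-0.32 to 0.65) on 1423602_at and -0.35 log2 (-0.81 to 0.11) on 1445452_at. Birc3 also differed in sign between its probe sets, at 0.30 log2 (-0.11 to 0.71) and -0.11 log2 (-0.47 to 0.25). With the 3 arrays that carried Xist together with Y-linked signal left out, the differences of Tnf, Tnfrsf1a, Traf1 on 1423602_at, Traf2 and Tradd on 1452622_a_at were below 0, between -0.24 and -0.015 log2. Traf1 on 1445452_at and Birc3 on 1425223_at stayed below 0 as well, at -0.665 and -0.37 log2. The remaining probe sets lay at 0 or above. A p that misses the threshold does not show that the groups were alike.

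**Figure D4:**
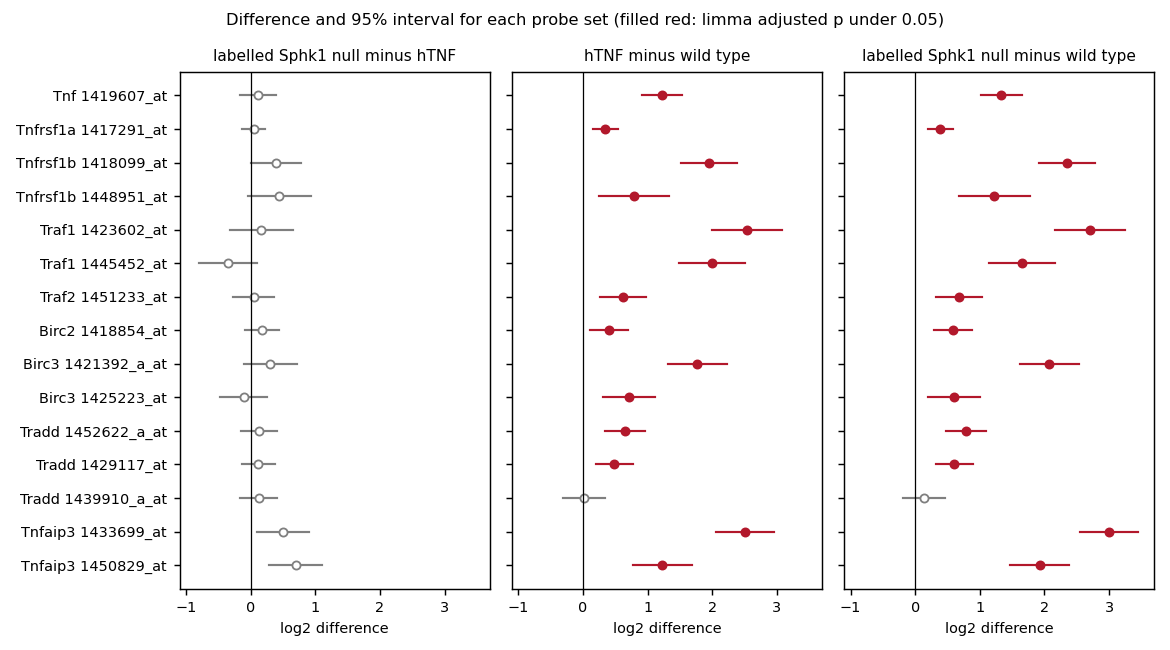
Log2 differences of the 15 probe sets with 95% intervals from limma, for the 3 comparisons. Filled red marks a limma adjusted p under 0.05: against wild type 14 called probe sets lie above 0 in both transgenic groups, whereas between joints labelled Sphk1 null and hTNF joints most intervals include 0 and the points lie between -0.35 and 0.70.

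Set against the same 2 wild-type arrays, joints labelled Sphk1 null gave the same 14 probe sets as higher and none lower, with 1439910_a_at of Tradd the exception (0.14 log2, limma adjusted p = 0.503). Over all tested probe sets 18.7% rose and 20.2% fell in this comparison. The median difference of the 15 was 1.23 log2, against 0.01 over all tested probe sets, and 8 rose by at least 1 log2, against 5.81% of all tested probe sets. For 14 of the 15 the groups did not overlap, against 28.7% of all that were higher without overlap. Because both comparisons use the same wild-type arrays, their likeness is not independent evidence. Tnfaip3 on 1433699_at rose by 3.00 log2, or 8-fold, with a 95% interval of 5.87-fold to 10.9-fold (limma adjusted p = 1.2e-05). Tnfrsf1b on 1418099_at rose 5.07-fold (limma adjusted p = 3.37e-05). Traf1 on 1423602_at rose by 2.70 log2 (5.02e-05), or by 2.29 log2 with the offset of 32, since both wild-type arrays lay below the filter level. Birc3 rose 4.21-fold on 1421392_a_at (limma adjusted p = 7.95e-05) and Tnf 2.52-fold (0.000101). The modest members rose as well, Tradd 1.72-fold (0.00174), Traf2 1.60-fold (0.0078), Birc2 1.5-fold (0.00655) and Tnfrsf1a 1.31-fold (0.00603). In this comparison the Tnfrsf1a call ended without wild-type replicate 2 (0.0535), the Traf2 call without wild-type replicate 1 (0.0657) and the Birc3 call on 1425223_at without either (0.143 and 0.0632). With the 3 arrays that carried Xist together with Y-linked signal left out, which kept 1 wild-type array, that Birc3 difference was 0.36 log2, against 0.60 log2 with all arrays. The pairs shifted by 1.95 ± 0.09 log2 for Tnfrsf1b over Tnfrsf1a, 2.02 ± 0.11 for Traf1 over Traf2 and 1.49 ± 0.32 for Birc3 over Birc2. With the other probe set of the first-named gene they were 0.84 ± 0.14, 0.97 ± 0.13 and 0.02 ± 0.14 log2, in the same order.

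Around these members, the pathway was read from lists of its other components, with each gene given by its brightest probe set. Of 12362 genes tested, 16.5% rose and 19.6% fell in hTNF against wild-type joints. The signalling list holds the protease that releases TNF, the ubiquitin ligases and kinases of the receptor complex and its regulators. Of its 28 measured genes out of 31 listed, 10 rose and none fell in hTNF joints, with a median of 0.12 log2. Ikbke, a kinase induced by NF-kB, stood at 9.85, 9.70 and 9.73 log2 in joints labelled null and at 8.83, 9.79 and 9.71 in hTNF joints, against 7.47 and 7.74 in wild-type joints, a rise of 1.84 ± 0.25 log2 in hTNF joints (limma adjusted p = 0.000664). Adam17, which cuts TNF and its receptors from the cell surface, stood at 11.87, 11.74 and 11.55 in joints labelled null and at 11.25, 11.46 and 11.54 in hTNF joints, against 9.81 and 10.05 in wild-type joints. It rose by 1.49 ± 0.13 log2 in hTNF joints (7.61e-05). Tnip1, a partner of A20, rose by 1.15 ± 0.14 log2 (0.000383) and Tank, a binding partner of TRAF proteins, by 0.99 ± 0.14 log2 (0.000644). Rhbdf2, which carries ADAM17 to the surface of immune cells, and Map3k8, a kinase upstream of ERK, each rose by 0.79 log2. The linear ubiquitin ligase genes Rnf31, Rbck1 and Sharpin were not called, at 0.07, 0.05 and -0.05 log2, and neither was Cyld, a deubiquitinase of the complex, at 0.08 log2.

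Of 14 measured genes of the death arm, out of 18 listed, 7 rose and 3 fell in hTNF against wild-type joints, beside the 16.5% of all genes that rose and the 19.6% that fell. The median of the 14 was 0.48 log2. Bid, which links caspase 8 to mitochondria, rose by 1.52 ± 0.16 log2 (limma adjusted p = 0.00018), and Mlkl, the executor of necroptosis, by 1.14 ± 0.17 log2 (0.000942). Casp8, the initiator caspase, rose by 0.90 ± 0.14 log2 (0.00118), Apaf1, the apoptosome scaffold, by 0.84 ± 0.14 log2 (0.00187), and Bak1, a pore-forming BCL2 relative, by 0.83 ± 0.19 log2 (0.00895). The remaining rises were those of Mcl1 (0.775 ± 0.106 log2, limma adjusted p = 0.000635) and Cflar (0.41 ± 0.11 log2, 0.0194). Cycs, which encodes cytochrome c of the respiratory chain, fell by 0.80 ± 0.10 log2 (0.000385), Bcl2, which blocks apoptosis, fell by 0.72 ± 0.12 log2 (0.0019), and Diablo, a mitochondrial inhibitor of IAP proteins, fell by 0.34 ± 0.11 log2 (0.0331). Beside these falls, 13 of 14 skeletal muscle marker genes fell and their mean level was 12.8 to 13.2 log2 in hTNF joints, against 14.1 to 14.2 in wild-type joints. Its part in the falls was not tested. Ripk3, the kinase that activates MLKL, was not called (0.56 ± 0.21 log2, adjusted p = 0.0672).

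Other receptors and ligands of the TNF superfamily were divided. Of 17 measured receptors out of 26 listed, 7 rose and 5 fell in hTNF against wild-type joints. Over all genes these shares were 16.5% and 19.6%. Tnfrsf9 (4-1BB), a costimulatory receptor of lymphocytes, rose by 1.23 ± 0.13 log2 (limma adjusted p = 0.000167), the death receptor Fas by 1.15 ± 0.17 log2 (0.00106) and Tnfrsf11a (RANK), the receptor that drives osteoclast formation, by 0.82 ± 0.16 log2 (0.00463). Tnfrsf18 (GITR) rose by 0.78 ± 0.17 log2 (0.00576) and Tnfrsf13b (TACI), a B cell receptor, by 0.63 ± 0.21 log2 (0.0479). Eda2r, a receptor for ectodysplasin, fell by 1.81 ± 0.20 log2 (0.000235) and Tnfrsf11b (osteoprotegerin), the decoy receptor for RANKL, fell by 1.06 ± 0.14 log2 (0.00051). Beside these, the 6 osteoclast markers averaged 10.1 to 10.5 log2 in hTNF joints, against 8.26 and 9.26 in wild-type joints, and the part of cell composition was not tested. Smaller falls were those of Tnfrsf19 (-0.80 log2), Tnfrsf13c (-0.58 log2) and Ngfr (-0.36 log2). Without wild-type replicate 1, 3 receptors rose. Leaving out labelled null replicate 3, any hTNF array or either wild-type array left 2 or 3 falls among the receptors. Of 7 measured ligands out of 17 listed, 2 rose, which were Tnfsf13b (BAFF), a B cell survival factor, by 1.60 ± 0.16 log2 (0.000122) and Tnfsf9 (4-1BB ligand) by 1.56 ± 0.20 log2 (0.000407). Eda (ectodysplasin) fell by 0.48 ± 0.13 log2 (0.0199), a call that ended when any 1 of the 3 hTNF arrays or either wild-type array was left out. Against wild-type joints, the joints labelled Sphk1 null showed 10 rises and no fall in the signalling list (3 falls without labelled null replicate 1), 8 rises and 3 falls in the death arm, 8 rises and 4 falls among the other receptors and 3 rises and 1 fall among the other ligands (no fall without wild-type replicate 1), with 19.1% of all genes rising and 23.8% falling. In joints labelled Sphk1 null against hTNF joints, none of the genes in the 4 lists was called, beside 0.0162% of all genes called higher.

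**Figure D5:**
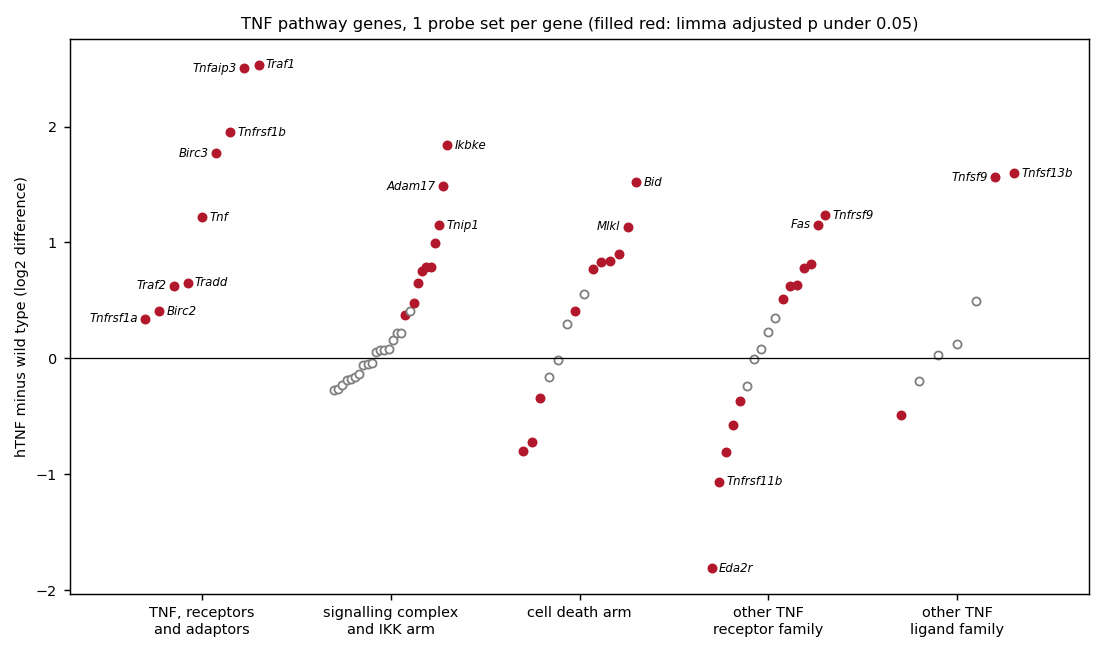
Log2 difference between hTNF and wild-type joints for the 9 members and each measured gene of the 4 pathway lists, 1 point per gene, with called genes filled red. In the signalling list all 10 called genes lie above 0, whereas the death arm and the other receptors have called genes on both sides.

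For the members whose brightest probe set rose by at least 1 log2, the genes with the most similar pattern were found by the root mean square difference of log2 values centred on each gene's mean over the 8 arrays. For Tnfrsf1b these were Hcls1 (0.0742 log2), a signalling adaptor of blood cells, and Relb (0.0789), an NF-kB subunit. For Birc3 they were Lcp1 (0.0972), an actin-bundling protein of leukocytes, and Stx11 (0.102). For Tnfaip3 they were Icam1 (0.118), an adhesion molecule, and Pik3r5 (0.130), and for Traf1 the sugar transporter Slc2a6 (0.118) and Pik3r5 (0.158). For Tnf they were Scpep1 (0.0739) and Zfp658 (0.0767). Among the members themselves, Traf2 and Tradd were closest (0.0741), Traf1 lay 0.232 from Tnfaip3 and Tnfrsf1b lay 0.233 from Birc3, and Tnfrsf1a lay 1.07 from Tnfaip3. These distances describe the 8 arrays, whose points share the step between wild-type and transgenic joints.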

How the data were processed

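Expression was deposited as log2 values for 45101 probe sets on 8 Affymetrix arrays, in a single table and rounded to 2 decimals. The tools named, per the submitters' processing notes, are RMA, MAS5 and Affymetrix Expression Console, without versions, and the sources used here do not say which one produced the table. Array medians lay between 6.84 and 6.89, so differences in total RNA are not visible. Such summaries can alter the size of changes at both ends of the brightness range, and whether they did so here was not tested. The number of arrays limits the precision.

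Names came from the platform annotation and were updated by gene identifier in a RefSeq table of GRCm38.p6, which 34741 probe sets matched. One gene was listed for 34945 probe sets, several for 932 and none for 9160. Controls were dropped, and a probe set was tested where its value exceeded 6.87 on at least 2 arrays, which left 24115. A linear model with the 3 group means was fitted over all 8 arrays in limma 3.58.1 in R 4.3.3, with moderated variances, an intensity trend and 5 residual degrees of freedom. A probe set was called at a Benjamini-Hochberg adjusted p under 0.05 over all tested probe sets. The fit was also run on simulated data, with independent values around a common mean per probe set and few changed probe sets. The real arrays differ in marker levels and many probe sets moved, so that run does not vouch for the calls. A gene in a list is its brightest tested probe set of that gene alone.

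The members and lists were chosen with earlier results of these data known. All listed members are described; of each pathway list, up to 5 called genes with the largest rise and 5 with the largest fall in hTNF against wild type are named, and Rhbdf2 and Map3k8, tied at the last place, are both named, and for members that rose by at least 1 log2, the 2 genes most like them. The uncalled Rnf31, Rbck1, Sharpin, Cyld and Ripk3 and the called Mcl1 and Cflar were added outside this rule, after their values were seen. Within-array differences between probe sets served only for their shift between groups, not to rank levels. Arrays of a group differed (at most 2.57% of probe sets had identical values), so none was counted as a repeat. Protein sequences were not used here. Alternatives changed the filter, normalization, offset, variance model, groups fitted, replicate block and covariates for Y-linked and skin levels, and left out each array or the 3 arrays that carried Xist together with Y-linked signal. Without those 3, each transgenic group kept 2 arrays and wild type kept 1.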

Additional observations from a re-analysis of the deposited data

How the results depend on the processing

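With 2 or 3 arrays in a group, single arrays carry weight, and dim probe sets near the filter level give uncertain sizes. Of the 15 member probe sets, the count called higher in hTNF against wild-type joints ranged from 9 to 14 when each array was left out in turn (9 without hTNF replicate 3 and 9 without wild-type replicate 2), and from 11 to 14 under the 11 other alternatives. The count for joints labelled Sphk1 null against wild-type joints ranged from 12 to 14 with an array left out and from 13 to 14 otherwise. In joints labelled null against hTNF joints no member was called under any of the 19 alternatives, and none was called lower in any comparison. In the main fit only 2 of all 24115 tested probe sets (0.00829%) were called higher between the transgenic groups, so a lack of calls there is not particular to the members. Against wild type, that fit called 16.6% of all tested probe sets higher in hTNF joints and 18.7% in joints labelled null. Calls held under all 19 alternatives for 8 probe sets in hTNF against wild-type joints (Tnf, Tnfrsf1b 1418099_at, both of Traf1, Birc3 1421392_a_at, Tradd 1452622_a_at and both of Tnfaip3) and for 11 in joints labelled null against wild-type joints. With the replicate number as a block, 11 and 13 probe sets were called in these comparisons, and 0 between the transgenic groups, and the calls that ended were those of Tnfrsf1b 1448951_at (0.0509), Birc2 (0.116) and Tradd 1429117_at (0.0651) in hTNF against wild-type joints and of Birc3 1425223_at (0.055) in labelled null against wild-type joints. The numbers were not shown to pair the samples: same-numbered labelled null and hTNF arrays had deviation correlations of 0.228, 0.0545 and 0.251, and not every array correlated best with its own number.

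The Tradd probe set 1439910_a_at, not called in hTNF against wild-type joints, changed sign with quantile normalization (-0.0144), with the Y-linked covariate (-0.00284) and with the 3 arrays that carried Xist together with Y-linked signal left out (-0.075), and ranged from -0.0367 to 0.0633 with an array left out. In joints labelled null against hTNF joints, leaving out those 3 arrays gave -0.03 for Tnf, -0.015 for Tnfrsf1a, -0.24 for Traf1 1423602_at, -0.14 for Traf2, -0.05 for Tradd 1452622_a_at and -0.1 for Traf1 minus Traf2. With an array left out, Traf1 1423602_at ranged from -0.0683 to 0.327 and Traf2 from -0.0683 to 0.177. With the brightest probe sets, Traf1 minus Traf2 shifted by 0.12 and Birc3 minus Birc2 by 0.13 log2 in joints labelled null against hTNF joints (exact permutation p = 0.6 and 0.3). With the other probe set of the first-named gene they reversed, to -0.4 and -0.28. Tnfrsf1b minus Tnfrsf1a kept its sign, at 0.35 and 0.39 log2. These last 4 shifts had an exact permutation p of 0.1, the smallest possible. Pair shifts were not subject to a call. None of these single-gene differences was called, and the cause was not tested.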
